A study of Mus musculus with 40 samples.

Results

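The mmu-miR-140-3p and mmu-miR-140-5p rows of a count table of mouse blood microRNAs are the 2 mature strands cut from 1 hairpin, Mir140, which lies inside the gene Wwp2. They were chosen by name, and the hairpin was selected because of how the miR-140-3p level differed between ages in these libraries, so all differences between ages in either strand or in their ratio are given as a description and carry no test. The table held 1915 rows, of which 1016 had a read, and both strands were among them. Only miR-140-3p was among the 105 microRNAs with more than 100 reads in at least 50% of the libraries, the filter of the study. Both strands were among the 345 microRNAs with more than 1 read in at least 50% of the libraries.

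The study asked how microRNAs in blood change while mice age and lose memory. Total blood was taken from the retro-orbital sinus of male C57B/6J wild-type mice, and the label of each library gives 1 of 4 ages (12, 13.5, 15 or 16.5 months), so that each age had 10 of the 40 libraries. The mice were kept singly, and the bleeds after the first, from 13.5 months on, followed memory tests in a water maze, so age and testing history cannot be told apart. The study also kept mice that stayed in their cages, and the labels do not say which mice gave which library. No allele or drug treatment separated the ages. Mice were bled repeatedly by design, but the labels do not tie libraries to animals. The column names carry 10 numbers that recur at each age, and the sources do not say whether these name animals. The libraries were therefore treated as independent, and any p-value measures the spread between them alone.

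A microRNA hairpin is cut by Drosha and Dicer into a short duplex, and as a rule 1 strand of the duplex is kept by an Argonaute protein while the other is degraded. The kept strand pairs with messenger RNAs mainly through its seed, the bases near its 5′ end, so the 5p and 3p strands of a hairpin have different targets. miR-140 is best known from cartilage, where it is abundant in chondrocytes and is needed for normal skeletal growth, and its host gene Wwp2 encodes an E3 ubiquitin ligase of the HECT class.

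The mature miR-140-3p is shown with its seed, bases 2 to 8, in capitals, together with the only other mouse microRNA among 1679 mature names that had the same seed, miR-497b. The hairpin is shown with the miR-140-3p stretch in capitals, because the report turns on the strand that comes from this side. All 3 sequences are from RefSeq on GRCm38.p6, where 1 of the 2 members matched a mature entry.
mmu-miR-140-3p: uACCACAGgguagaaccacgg
mmu-miR-497b: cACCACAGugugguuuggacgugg
Mir140 hairpin: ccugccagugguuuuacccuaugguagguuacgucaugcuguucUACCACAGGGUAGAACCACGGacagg
The hairpin occupied chr8:107551244-107551313 on the + strand, 70 bases, and miR-140-3p occupied chr8:107551288-107551308, bases 45 to 65 of the hairpin. Wwp2 (ENSMUSG00000031930.11) spanned chr8:107436365-107558595 on the same strand. The hairpin lay in an intron of 3 of the 4 Wwp2 transcripts that overlapped it and in an exon of the other, a transcript annotated as a retained intron. miR-497b, at chr11:70234763-70234786 on the - strand, had 0 reads in all 40 libraries, so reads with this seed were counted under miR-140-3p.

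The libraries held between 2469196 and 21386209 counts, and no pair of libraries of an age agreed within sampling noise. The shallowest, of 16.5 months, stood apart from all others by its correlation with them (a connectivity Z score beyond 2.5), and values without it are given beside the results that rest on it. Most counts belonged to miR-486, a red cell microRNA whose identical a and b rows were each filled with the same reads. With these reads counted once, miR-486a-5p took a median of 86.0% of the counts at 12 months, 87.3% at 13.5 months, 91.5% at 15 months and 86.3% at 16.5 months. The counts outside miR-486 made up 13.4% ± 2.70 (SD, n = 10), 13.1% ± 2.73, 7.93% ± 2.24 and 12.2% ± 3.78 in the same order of ages. Levels are therefore given as log2 CPM, the count per 1000000 counts of a library, with TMM scaling, which sets libraries to the same scale by their common microRNAs, and the values on other denominators follow. In total blood, fewer cells of a type and less RNA per cell cannot be told apart.

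miR-140-3p was an abundant blood microRNA at every age, and with TMM scaling its level was higher at 12 and 15 months than at 13.5 and 16.5 months. At 12 months its raw count ranged from 11323 to 29998 with a median of 20920.5, and its level from 10.04 to 10.55 log2 CPM with a median of 10.30. At 13.5 months the count ranged from 4993 to 24115 with a median of 10774, and the level from 9.12 to 10.09 with a median of 9.64. Of the 10 libraries of 13.5 months, 9 lay below all those of 12 months, and the groups overlapped by the remaining library. At 15 months the count ranged from 2195 to 12468 with a median of 7655.5, and the level from 10.12 to 10.95 with a median of 10.57. The age of 15 months thus had the highest median level and the lowest median raw count. At 16.5 months the count ranged from 897 to 24153 with a median of 8521, and the level from 9.34 to 10.39 with a median of 9.74.

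The mean levels were 10.54 ± 0.29 (SD, n = 10) at 15 months, 10.30 ± 0.17 at 12 months, 9.80 ± 0.32 at 16.5 months and 9.67 ± 0.28 at 13.5 months, from high to low. The pooled SD within ages was 0.27. The neighbours 15 and 12 months differed by 0.23 and the neighbours 16.5 and 13.5 months by 0.13, both less than this spread, while 12 months exceeded 16.5 months by more than it. The levels at 15 and 13.5 months, 0.86 apart, were the only ones that did not overlap. At 16.5 months, 8 of the 10 libraries lay below all those of 12 months, and 9 lay below all those of 15 months.

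**Figure D1:**
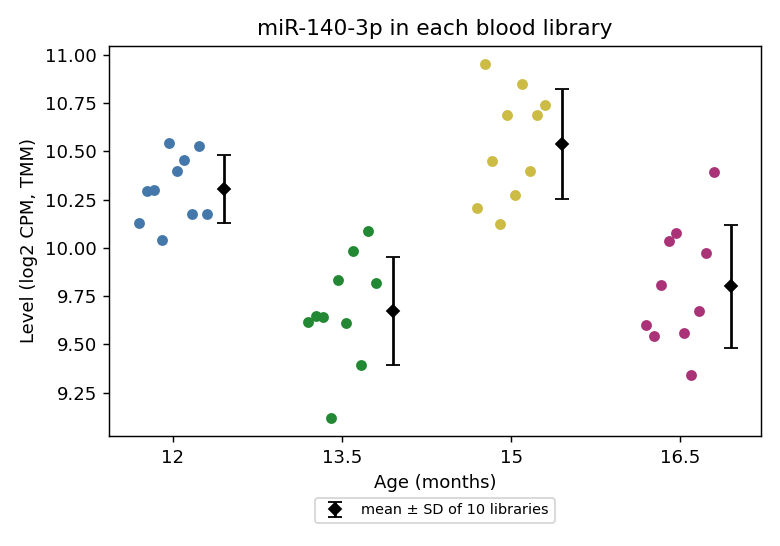
Level of miR-140-3p (log2 CPM, TMM scaling) in each of the 10 libraries per age (points, age in months on the x axis), with the mean and SD (diamond and bar). The libraries of 15 months sit between 10.12 and 10.95 and those of 13.5 months between 9.12 and 10.09.

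In the edgeR fit over the 105 microRNAs, miR-140-3p had a log2 fold change of -0.62 (SE 0.12), 0.652-fold, from 12 to 13.5 months. From 13.5 to 15 months the log2 fold change was 0.87 (SE 0.12), 1.82-fold. From 15 to 16.5 months it was -0.73 (SE 0.12), 0.603-fold. With TMM scaling its level thus went down, up and down again over the 3 steps of 1.5 months. Against 12 months, the log2 fold change was 0.25 (SE 0.12) at 15 months and -0.48 (SE 0.12) at 16.5 months. Without the library that stood apart, the change to 16.5 months was -0.44 from 12 months and -0.69 from 15 months.

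The height of the 15-month values depended on what the counts were divided by. As raw CPM, taken over all counts with the miR-486 reads in both of their rows, miR-140-3p had 1557 ± 289 (SD, n = 10) at 12 months, 1025 ± 318 at 13.5 months, 1134 ± 494 at 15 months and 1026 ± 477 at 16.5 months. With the miR-486 reads counted once, these values were 2899 ± 504, 1909 ± 560, 2168 ± 930 and 1912 ± 868. As CPM of the counts outside miR-486, it had 21781 ± 2286, 14443 ± 1855, 26122 ± 5656 and 14890 ± 3589 in the same order. The value at 15 months was thus below that at 12 months over all counts, counted either way, and above it over the counts outside miR-486. In an edgeR fit scaled by library totals alone, the log2 fold change from 12 to 15 months was -0.46, against 0.25 with TMM. That from 13.5 to 15 months was 0.15 (SE 0.26), against 0.87 with TMM. That from 15 to 16.5 months was -0.14 (SE 0.26), against -0.73 with TMM. Scaled in this way, the median log2 fold change of all 105 microRNAs was -0.84 from 12 to 15 months and -0.81 from 13.5 to 15 months, so that miR-140-3p lay above the typical microRNA at 15 months on either scale. The lower level at 13.5 than at 12 months held on each of these denominators and with TMM.

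**Figure D2:**
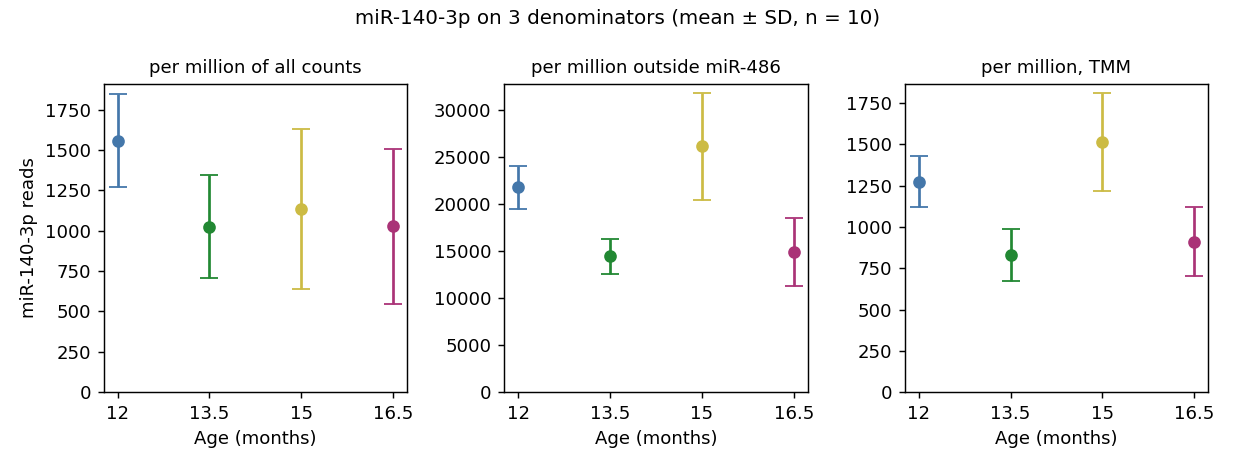
Reads of miR-140-3p (y axis from 0, a different scale in each panel) by age in months, as CPM of all counts (miR-486 reads in both rows), CPM of the counts outside miR-486 and CPM with TMM scaling, drawn as mean and SD of 10 libraries. The mean at 15 months is below that at 12 months in the left panel and above it in the middle and right panels.

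Among the 102 distinct rows above the filter, 11 had a higher mean level than the 10.08 log2 CPM of miR-140-3p, and the median was 6.04. Its age means spanned 0.86, and 26 of the other 101 microRNAs spanned more, with a median of 0.59. The highest age mean fell at 15 months for 24 of the 102 microRNAs, miR-140-3p among them. With TMM scaling miR-140-3p varied little within an age, since 84 of the 102 microRNAs had a larger SD within ages, with a median of 0.37. Most of these were rarer, so counting error adds more to their SD. As log2 CPM of all counts the SD of miR-140-3p within ages was 0.64, and the other microRNAs were not compared on that scale. The other cell markers of blood moved between ages too. The red cell microRNAs other than miR-486 took a median of 38.4%, 32.0%, 35.6% and 30.7% of the counts outside miR-486 at 12, 13.5, 15 and 16.5 months, highest at 12 and 15 months. The 5 markers listed as myeloid, miR-223 and miR-142a among them, took 5.11%, 3.83%, 5.31% and 4.37%. Their order of ages, 15, 12, 16.5 and 13.5 months from high to low, was that of the miR-140-3p means. Most of these reads were of miR-142a. The commoner strand of miR-142a had a median of 26157 reads per library, against 1505.5 for miR-21a and 209 for miR-223. The share thus mostly followed this 1 microRNA and is no measure of myeloid cells alone. The 3 lymphoid markers, miR-150-5p among them, took 0.400%, 0.698%, 0.493% and 0.599%. Both strands of miR-126a, a platelet and endothelial marker, together reached at most 0.0122% in a library, and the liver microRNA miR-122-5p had a median of 0 at each age. The part of these cell types in the miR-140-3p values was not tested.

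The column names came in different forms, and the sources do not say what a form stands for. The libraries of 12 and 16.5 months shared a form, and between these ages the log2 fold change of miR-140-3p was the -0.48 (SE 0.12) given above. The libraries of 13.5 and of 15 months had forms of their own, so that in every comparison with these ages form and age cannot be told apart. At 15 months there were different forms within the age, and the level of miR-140-3p was 10.54 ± 0.38 (SD, n = 3) in the one and 10.54 ± 0.27 (SD, n = 7) in the other.

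miR-140-5p, the strand by which the microRNA is best known in cartilage, was close to the limit of detection in blood. It had 10 to 40 reads per library at 12 months with a median of 21, and 2 to 21 at 13.5 months with a median of 14. It had 1 to 14 reads at 15 months with a median of 5.5, and 0 to 40 at 16.5 months with a median of 12.5. No library reached 50 reads of this strand, 13 of 40 had fewer than 10, and all ages overlapped. The 2 libraries with 0 reads were both of 16.5 months and had 1964 and 897 reads of miR-140-3p, so that a count of 0, taken as up to 3 reads, allows miR-140-5p a share of up to 0.153% and 0.334% of the hairpin's reads. Reads carried no molecular identifiers, so these limits and the intervals that follow cover counting error only.

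**Figure D3:**
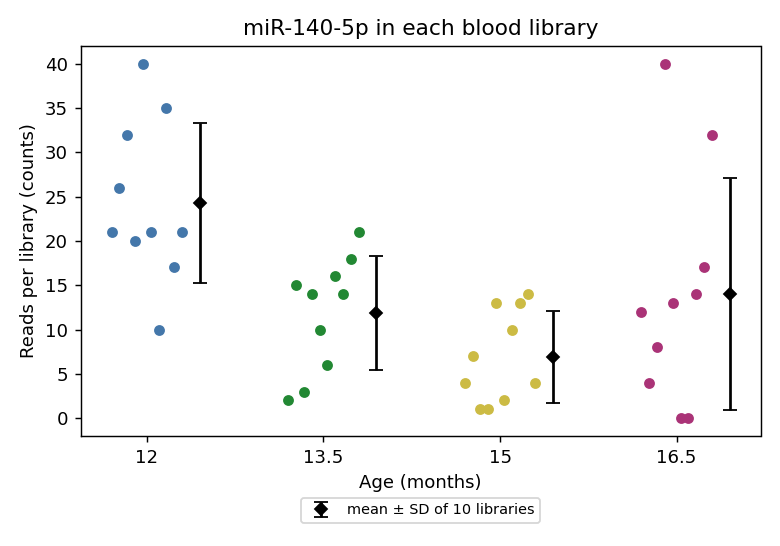
Raw reads of miR-140-5p in each of the 10 libraries per age (points, age in months on the x axis), with the mean and SD (diamond and bar). No library exceeds 40 reads, and 2 libraries of 16.5 months are at 0.

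The level of miR-140-5p was 0.68 ± 0.46 log2 CPM (SD, n = 10) at 12 months, 0.40 ± 0.87 at 15 months, -0.0026 ± 0.72 at 13.5 months and -0.11 ± 1.32 at 16.5 months, from high to low. A prior count of 2 was added before the log, which sets the level of the libraries at 0. With a prior count of 0.5 the mean at 16.5 months was -0.63. By the median level the order differed, with 0.62 at 12 months, 0.42 at 16.5 months, 0.36 at 15 months and 0.15 at 13.5 months. The pooled SD was 0.90 and exceeded every difference between ages. In the edgeR fit over the 345 microRNAs, the log2 fold change of miR-140-5p was -0.72 (SE 0.31) from 12 to 13.5 months, 0.66 (SE 0.35) from 13.5 to 15 months and -0.24 (SE 0.35) from 15 to 16.5 months. These 3 steps had the same signs as those of miR-140-3p, with standard errors more than 2 times as large. Against 12 months the log2 fold change of miR-140-5p was -0.05 (SE 0.33) at 15 months and -0.29 (SE 0.31) at 16.5 months. Scaled by library totals alone in place of TMM, it was -0.75 from 12 to 13.5 months, and the steps after 13.5 months had the opposite sign, -0.02 and 0.34. On that scale the values against 12 months were -0.76 at 15 months and -0.42 at 16.5 months.

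In blood the hairpin was counted almost only as its 3p strand. Over all 40 libraries 498170 reads of miR-140-3p stood against 571 reads of miR-140-5p, which made 872 to 1 with a 95% Wilson interval of 804 to 947, and miR-140-5p was 0.114% of the hairpin's reads (0.105% to 0.124%). Summed per age, the ratio was 871 (768 to 988) at 12 months, 944 (789 to 1130) at 13.5 months, 1033 (816 to 1307) at 15 months and 735 (623 to 867) at 16.5 months. The strands differ in their ends, so ligation may count them unequally, which was not tested. The ratio between ages is free of library scaling.

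Taken per library as log2 of 3p over 5p with 0.5 added to each count, the ratio averaged 9.76 ± 0.51 (SD, n = 10) at 12 months and ranged from 8.74 to 10.44. It averaged 9.92 ± 0.84 at 13.5 months, with a range of 8.96 to 11.62. It averaged 10.18 ± 0.70 at 15 months, from 9.10 to 11.04, and 9.91 ± 0.88 at 16.5 months, from 8.97 to 11.94. All ages overlapped, and with 0.5 added the largest difference of means, 0.41 between 15 and 12 months, was smaller than the pooled SD of 0.75. The age of 16.5 months had the lowest ratio of summed reads and not the lowest mean of log ratios, because its libraries with 0 reads of miR-140-5p weigh little in a sum and gave high log ratios. The difference between 16.5 and 12 months was 0.15 with 0.5 added to each count, -0.29 with 2 added and -0.19 with none added, which leaves those libraries out, so its sign depended on the count added. Without the library that stood apart it was 0.05. The difference between 16.5 and 15 months was -0.27 with 0.5 added, -0.36 with 2 added and -0.79 with none added. Which ages differed most thus depended on the count added too. Counting alone would give an SD of 0.311 at 12 months, 0.495 at 13.5 months, 0.652 at 15 months and 0.574 at 16.5 months, which at 15 months was close to the SD seen. The chi-square of the miR-140-5p counts around 1 common share, divided by its degrees of freedom, ran from 1.41 at 16.5 months to 2.87 at 12 months, where 1 stands for counting error alone.

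**Figure D4:**
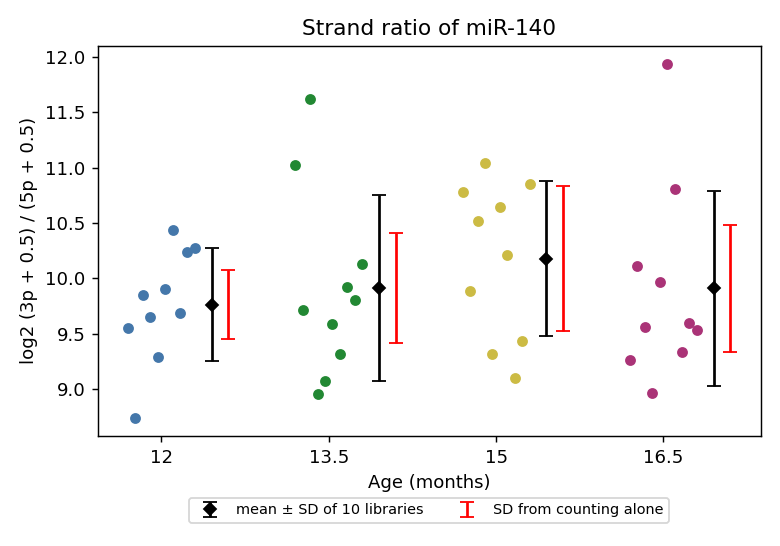
Log2 ratio of miR-140-3p to miR-140-5p reads, 0.5 added to each, in each of the 10 libraries per age (points, age in months on the x axis), with the mean and SD (black) and the SD that counting alone would give (red). All ages overlap, and the means lie between 9.76 and 10.18.

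Variation between libraries of an age was not used to choose the hairpin, so here the strands could be tested against each other. Libraries with more miR-140-3p than others of their age also had more miR-140-5p. With the age means removed, the levels had a Pearson r of 0.56 (n = 40, two-sided permutation within ages, p = 0.00069, adjusted p = 0.0069 over 10 relations) and a Spearman rho of 0.56 (permutation p = 0.00058, adjusted p = 0.0058). Without the 2 libraries farthest from the median r was 0.60, and without the libraries with 0 reads of miR-140-5p it was 0.48 (permutation p = 0.0061). Without the library that stood apart it was 0.50 (permutation p = 0.0038). In single ages r was 0.17 at 12 months, 0.29 at 13.5 months, 0.68 at 15 months and 0.72 at 16.5 months, with rho of -0.03, 0.49, 0.58 and 0.74. The sign of r was positive at all 4 ages, none passed the adjustment (permutation, adjusted p of r = 0.698, 0.594, 0.0890 and 0.0890, of rho = 0.945, 0.291, 0.291 and 0.0957), and at 12 months r was -0.15 without the 2 libraries farthest from the median. Both strands of a library share its scaling factor, and with library totals alone r was 0.87. The permutations took the libraries of an age as independent and were not repeated with the numbers that recur in the column names.

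**Figure D5:**
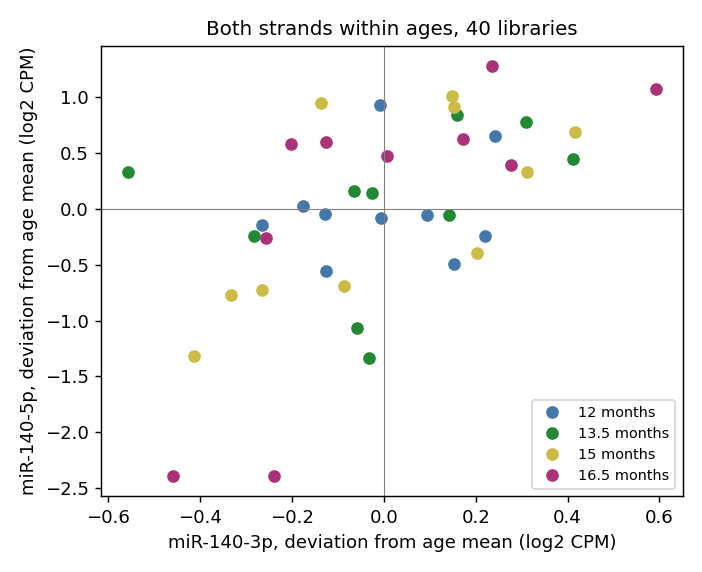
Deviation of miR-140-5p from its age mean (y axis, log2 CPM) against that of miR-140-3p (x axis, log2 CPM) in 40 libraries, coloured by age. The points rise together with r = 0.56, and the 2 libraries of 16.5 months at the bottom are those with 0 reads of miR-140-5p.

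The strand ratio showed no relation to the library total over all 40 libraries with the age means removed (r = 0.00095, permutation p = 0.996, adjusted p = 0.996, and rho = 0.11, adjusted p = 0.571). By age r was 0.67, 0.20, 0.40 and -0.58, with permutation-based adjusted p of 0.0890, 0.698, 0.438 and 0.181, and rho was 0.47, 0.42, 0.43 and -0.48, each with an adjusted p of 0.291. The sign at 16.5 months was opposite to that of the other ages. Without the libraries at 0 the relation within ages had an r of 0.29 (permutation p = 0.131).

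The microRNA whose deviations within ages were most like those of miR-140-3p was miR-30d-5p, with r = 0.87 over 40 libraries. Then came miR-146b-5p at 0.73, miR-148b-3p and miR-29a-3p at 0.71 each and miR-181c-5p at 0.69, while the median over the 101 other microRNAs was 0.22. For miR-140-5p the closest were miR-16-5p at 0.75, miR-26b-5p at 0.74, miR-30d-5p at 0.72, miR-451a at 0.71 and miR-146b-5p at 0.69, with a median of 0.23 over 102. The other strand, miR-140-3p, was not among these 5, with r = 0.56 to miR-140-5p. The values for miR-140-5p include the libraries with 0 of its reads and were not recomputed without them. miR-30d-5p and miR-146b-5p were thus near both strands, and miR-16-5p and miR-451a are red cell markers. All these values share the scaling of their libraries.

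By the shape of the 4 age means, centred on their mean, miR-30b-5p was closest to miR-140-3p with a root mean square difference of 0.134 on the log2 scale. Its mean levels were 6.32, 6.00, 6.56 and 6.04 log2 CPM from 12 to 16.5 months. Next were miR-192-5p at 0.159, miR-148b-3p at 0.175, miR-10b-5p at 0.183 and miR-451a at 0.211, against a median of 0.459. Each of these 5 had a lower mean at 13.5 months than at 12 and at 15 months, as miR-140-3p did, and miR-451a was higher at 12 months (12.54) than at 15 months (12.18). miR-148b-3p was near miR-140-3p both within and between ages.

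Other hairpins showed how far strand ratios can move in this blood. In 10 hairpins both strands passed the filter of 100 reads, with miR-486a and miR-486b counted once. The size of their log2 ratios ran from 0.81 to 12.4 with a median of 3.46, against 9.94 for miR-140, and only miR-486b, which kept its 5p strand, was more unequal. With 0.5 added to each count, the age means of the ratio spanned more than the 0.41 of miR-140 in all 10, with a median span of 0.98. The widest spans of the 10 were miR-15b at 1.75, miR-486b at 1.54 and let-7d at 1.52, and the narrowest miR-151 at 0.496, miR-423 at 0.519 and miR-30e at 0.692. The span of miR-140 depended on the added count. Its mean at 16.5 months minus that at 15 months was -0.79 with none added and -0.36 with 2 added. The other hairpins were not recomputed in these ways, so the place of miR-140 among them holds for 0.5 added only. The log2 ratio of let-7d, for example, was -2.04 at 12 months and -0.52 at 15 months, a shift towards its 3p strand. The strands of these hairpins had within-age correlations from -0.49 for miR-93 to 0.93 for miR-423, with a median of 0.39, beside the 0.56 of miR-140. Among the 69 hairpins with both strands above 1 read, again with 0.5 added, 65 had a wider span of age means than miR-140 and 5 were more unequal. Their median SD within ages was 0.79, against 0.75 for miR-140. The strands of these 69 had a median within-age correlation of 0.16, with a range from -0.55 to 0.93, against 0.56 for miR-140.

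Other microRNAs known from cartilage and connective tissue were rare in this blood. Of 10 such microRNAs, none passed the filter of 100 reads and 3 entered the fit over 345 microRNAs. miR-455-5p, whose gene lies in the cartilage collagen gene Col27a1, and both strands of miR-675, made from H19, had 0 reads, and miR-455-3p had 63 reads in all 40 libraries. miR-199a-3p had 82 reads, miR-214-3p, from the same precursor RNA as miR-199a, had 56, and miR-199b-5p had 6. miR-143-3p, known from smooth muscle and connective tissue, had the most, 1 to 1998 reads per library with a median of 39.5, and its partner miR-145a-5p had 0 to 11. miR-140-3p was thus far more abundant than these, and the part of cells other than blood cells in it was not tested.

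Of the 3 that were tested with edgeR, 1 was lower and none higher at 13.5 than at 12 months, where 15.7% of all 345 microRNAs differed at an adjusted p under 0.05. At 16.5 against 12 months 2 were lower, with 13.9% of all microRNAs called. None was called from 12 to 15 months (11.3% of all), from 13.5 to 15 months (27.0%) or from 15 to 16.5 months (12.5%). At an unadjusted p under 0.05 miR-143-3p would count from 12 to 15 months and none would from 13.5 to 15 or from 15 to 16.5 months. Their median log2 fold changes over these comparisons, in the order given, were -0.93, -2.01, -0.93, -0.01 and -0.98, beside medians of -0.05, -0.07, -0.07, -0.01 and -0.0023 over all microRNAs. Without 1 library of 12 months that held 1998 reads of miR-143-3p, the 3 medians against 12 months were -0.33, -0.59 and 0.25, the last with its sign turned. The lower calls were miR-143-3p, with log2 fold changes of -1.74 at 13.5 months (SE 0.50, edgeR adjusted p = 0.0120) and -2.01 at 16.5 months (SE 0.51, edgeR adjusted p = 0.00952). The other was miR-199a-5p at 16.5 months, with -2.07 (SE 0.59, edgeR adjusted p = 0.0147) from 0 to 17 reads per library. The miR-143-3p calls rested on the library with 1998 reads. Without it the values were -0.33 at 13.5 months (SE 0.32, edgeR adjusted p = 0.547) and -0.59 at 16.5 months (SE 0.33, edgeR adjusted p = 0.274), and that from 12 to 15 months turned from -1.03 (SE 0.50) to 0.39 (SE 0.33, unadjusted edgeR p = 0.245). miR-199a-5p was still lower, at -1.95 (SE 0.60, edgeR adjusted p = 0.0303), and miR-143-3p was then called lower from 15 to 16.5 months, at -0.98 (SE 0.34, edgeR adjusted p = 0.0459).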

How the data were processed

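Small RNA libraries of total blood were made with the TruSeq kit and sequenced as 50 bp single-end reads. The authors checked reads with FastQC (0.11.5), trimmed adapters, kept reads of at least 18 nt, mapped them to mm10 with miRDeep2 and deposited a table of raw counts, 1 row for each mature microRNA in miRBase 21. They allowed 2 bases before and 5 bases after the mature sequence, so reads with shifted ends were summed, and a read that fits identical microRNAs was entered in each. A second deposited table of normalized values was not used. Every column named an age, and none named a replicate of the labels, so each was 1 unnumbered library of its age.

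Counts were fitted with edgeR 4.0.16 (limma 3.58.1, R 4.3.3) with age as a factor, TMM scaling and the quasi-likelihood test, with Benjamini-Hochberg adjustment over all microRNAs in the fit. Filters were more than 100 or more than 1 read in at least 50% of the 40 libraries. The second fit served microRNAs below the first filter. Levels are log2 CPM with a prior count of 2. Relations were tested with 100000 permutations. The scripts were tested on simulated data. Alternatives were DESeq2 1.42.0, other scalings and filters, and left-out libraries. Named microRNAs were the strands, the 5 most like them, and those in the lists of cell markers and cartilage microRNAs. Of the hairpins, the 3 with the widest and the 3 with the narrowest span of age means of the log2 ratio were named. The members and lists were chosen with earlier results of these data known.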

Additional observations from a re-analysis of the deposited data

How the results depend on the processing

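Scaling by library totals alone, in place of TMM, turned the log2 fold change of miR-140-3p from 12 to 15 months to -0.46 and gave 0.15 from 13.5 to 15 months and -0.14 from 15 to 16.5 months, with mean levels of 10.58 at 12 months and 9.98 at 15 months. Of 157 values recomputed under an alternative, 149 stayed within the spread of the main value or on its side of the threshold; the others were these 5 and 3 counts of cartilage microRNAs, 2 lower and 1 higher without the library that held 1998 reads of miR-143-3p. That setting, the replicate block and the omission of libraries at 0 were chosen after seeing the data.

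The column names carry 10 numbers that recur at each age, and the sources do not say what they stand for. By the median, libraries with the same number did not deviate together more than those of other numbers (median r = 0.000539 over 60 pairs against 0.00220). The 60 pairs ran from -0.849 to 0.854, with 24 over 0.1, and 7 of 40 libraries were closest to one of their own number. Neither count was compared with that for libraries of other numbers or for random matches. These values do not settle whether the numbers name animals. With these numbers as a replicate block, the log2 fold changes of miR-140-3p were -0.63, 0.24, -0.48, 0.87 and -0.72 and those of miR-140-5p -0.76, -0.14, -0.33, 0.63 and -0.19 for 13.5 v 12, 15 v 12, 16.5 v 12, 15 v 13.5 and 16.5 v 15 months. For 13.5 v 12 months the SE with this block was 0.108 against 0.122 for miR-140-3p, and 0.316 against 0.309 for miR-140-5p. Leaving out the library of 16.5 months that stood apart moved no value beyond the spread. The ratio over libraries with at least 50 reads of miR-140-5p was not run, as no library had them. Depth limits miR-140-5p more than miR-140-3p: at 0 to 40 reads the SE of its log2 fold changes was 0.31 to 0.35, against 0.12.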
